A study of Mus musculus with 4 samples.

Results

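NANOG occupancy was examined at the loci of Klf2, Klf4 and Klf5, which encode Krüppel-like zinc-finger transcription factors of the naive pluripotency network. The members were all NANOG windows centred within 100 kb of each gene body on mm10: Klf4 (ENSMUSG00000003032, minus strand) at chromosome 4, 55527143 to 55532466, Klf2 (ENSMUSG00000055148, plus strand) at chromosome 8, 72319033 to 72321656, and Klf5 (ENSMUSG00000005148, plus strand) at chromosome 14, 99298691 to 99313407. Of the 21066 windows in the series, 17 met this rule, 5 at Klf4, 4 at Klf2 and 8 at Klf5. Among these windows membership rested on position alone. The windows themselves are NANOG peaks called on the pooled reads of the samples studied here. Signal in a single group can therefore have placed a window in the series.

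NANOG chromatin immunoprecipitation sequencing (ChIP-seq) was carried out in ZHBT-O4AID cells, a line of mouse embryonic stem cells (ESCs) labelled as 129SV. All of these cells carry the genotype Oct4-/-, a TetOFF Oct4 transgene that doxycycline keeps silent, and Oct4AID and Tir1 under the constitutive CAG promoter, so the OCT4 they contain carries an auxin-inducible degron (AID) and is degraded through TIR1 once auxin is present. The medium of both groups was N2B27 with PD03, Chiron and LIF, and doxycycline. The uninduced group (2 replicates) received no auxin, and the IAA group (2 replicates) received 500 μM indole-3-acetic acid (IAA) for 1.5 h. The comparison asks how NANOG binding at these genes differs once OCT4 is depleted. The replicates are independent immunoprecipitations, and whether they came from separate cultures is not given in the sources used here, so the p-values measure the spread between these libraries. No library of cells that lack the degron was analysed here, so an effect of IAA itself cannot be told apart from that of OCT4 loss.

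KLF2, KLF4 and KLF5 act with OCT4, SOX2, NANOG and ESRRB at shared enhancers and support self-renewal in overlapping ways. Klf4 is known as a target of LIF and STAT3 signalling, KLF2 is a factor that MEK and ERK signalling destabilises, and Klf5 is also expressed in the trophectoderm. NANOG is a homeodomain protein that binds many of the same enhancers as OCT4, often far from the gene that they regulate.

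Positions are given as the distance of the window centre from the gene start along the direction of transcription, so that a positive value lies downstream. The 200 bases around the centres of 9 windows are given here because the results turn on them: the strongest window of each locus, 4 of the 5 windows that passed the test, neighbours of windows with another change, and the window with the lowest change. They are the plus strand of the RefSeq GRCm38 reference, which is of the C57BL/6J strain and not of 129SV. Capitals mark matches on either strand to the octamer ATGCAAAT or its first letters ATGCAA, to SOX (ACAATG), KLF (GGGTGTGG), ESRRB (TCAAGGTCA), STAT (TTCNNNGAA) and NANOG-type (TAATGG) motifs, where overlapping matches run together. Both Klf2 windows, Klf5 -22.7 kb and Klf5 -91.8 kb hold no match in the bases printed.
Klf4 +67.9 kb, chr4:55464442-55464641: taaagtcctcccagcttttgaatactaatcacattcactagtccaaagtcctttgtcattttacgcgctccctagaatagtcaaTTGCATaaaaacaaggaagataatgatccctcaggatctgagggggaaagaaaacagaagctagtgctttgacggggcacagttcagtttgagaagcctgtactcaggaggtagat
Klf4 +54.9 kb, chr4:55477425-55477624: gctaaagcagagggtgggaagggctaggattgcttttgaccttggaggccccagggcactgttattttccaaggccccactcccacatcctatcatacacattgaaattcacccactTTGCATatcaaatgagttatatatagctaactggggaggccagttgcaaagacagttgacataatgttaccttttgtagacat
Klf4 +16.4 kb, chr4:55515998-55516197: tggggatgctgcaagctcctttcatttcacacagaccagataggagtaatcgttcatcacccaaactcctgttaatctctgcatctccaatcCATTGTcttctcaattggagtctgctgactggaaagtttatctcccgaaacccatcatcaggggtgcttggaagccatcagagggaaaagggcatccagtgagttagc
Klf4 -86.6 kb, chr4:55618980-55619179: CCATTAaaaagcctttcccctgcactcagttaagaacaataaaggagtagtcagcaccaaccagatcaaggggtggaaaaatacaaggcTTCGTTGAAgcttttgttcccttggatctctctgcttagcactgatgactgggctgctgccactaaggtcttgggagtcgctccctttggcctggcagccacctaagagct
Klf2 +15.4 kb, chr8:72334335-72334534: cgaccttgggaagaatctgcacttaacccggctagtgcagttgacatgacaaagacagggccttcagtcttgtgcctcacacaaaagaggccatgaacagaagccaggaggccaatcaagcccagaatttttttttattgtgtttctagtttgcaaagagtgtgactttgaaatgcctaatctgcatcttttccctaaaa
Klf2 -2.8 kb, chr8:72316126-72316325: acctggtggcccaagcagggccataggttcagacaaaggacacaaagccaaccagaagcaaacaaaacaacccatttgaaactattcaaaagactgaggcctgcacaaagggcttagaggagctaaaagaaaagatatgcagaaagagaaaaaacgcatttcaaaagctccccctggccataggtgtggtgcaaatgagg
Klf5 -22.7 kb, chr14:99275913-99276112: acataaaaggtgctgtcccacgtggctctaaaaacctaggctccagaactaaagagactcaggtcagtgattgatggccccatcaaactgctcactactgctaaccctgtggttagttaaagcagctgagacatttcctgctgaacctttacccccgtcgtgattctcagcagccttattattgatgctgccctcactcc
Klf5 -20.9 kb, chr14:99277697-99277896: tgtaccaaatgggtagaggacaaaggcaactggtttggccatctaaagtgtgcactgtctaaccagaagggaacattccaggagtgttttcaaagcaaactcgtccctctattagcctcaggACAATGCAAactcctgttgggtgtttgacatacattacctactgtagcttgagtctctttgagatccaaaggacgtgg
Klf5 -91.8 kb, chr14:99206805-99207004: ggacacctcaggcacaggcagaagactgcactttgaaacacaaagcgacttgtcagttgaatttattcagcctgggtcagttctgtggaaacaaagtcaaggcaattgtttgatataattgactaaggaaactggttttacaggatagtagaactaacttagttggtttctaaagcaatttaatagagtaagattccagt

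The octamer, the sequence read by the POU domain of OCT4, matched in 0 of the 17 windows over their full 351 bp. It matched in 2.96% of all bound peaks, 7.84% of those close to OCT4 and 1.44% of the others, rates too low for 0 of 17 to be informative. Its first letters, ATGCAA, a pattern chosen after the sequences were seen, matched in 5 of the 10 windows close to an OCT4 site (Klf4 +67.9 and +54.9 kb, Klf5 -22.7, -20.9 and +41.3 kb) and in 0 of the 7 others. Among bound peaks it matched in 23.4% of those close to OCT4 and 15.5% of the others. In the neighbouring Klf5 -22.7 and -20.9 kb windows this match shares letters with a SOX match, which at -22.7 kb lies outside the 200 bases printed. SOX motifs were present in 7 of the 17 windows (37.0% of bound peaks), NANOG-type motifs in 5 (20.9%), STAT motifs in 4 (13.3%), a KLF motif in 1 (Klf2 +15.4 kb; 6.33%) and an ESRRB motif in 1 (Klf2 -27.7 kb; 3.99%). Of the 5 windows with a NANOG-type motif, 4 lay away from OCT4. Bound peaks showed little such difference, as this motif matched in 19.8% of those close to OCT4 and 21.2% of the others. GC content ran from 39.9% to 49.6% with a median of 43.6%, against a median of 46.2% over bound peaks.

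Values are RPKM, that is reads scaled to window length and library size, and no spike-in is named in the sources used here. A window counts as bound at 0.9 RPKM or more in either condition. All 17 reached this in both conditions, so none passed this threshold through a single group, which says nothing about the peak calling before it. The libraries held from 5406307 reads (IAA replicate 2) to 19634763 reads (IAA replicate 1), and the members were covered by 2 to 278 reads per window and library. Over the 16608 bound peaks the median log2(RPKM + 0.1) was 1.12 and 1.60 in the uninduced libraries and 2.01 and 2.11 in the IAA libraries, so a general rise moves with the treatment. A change is therefore given on this scale as IAA minus uninduced, and again after centring each library on its median. A bulk signal cannot tell more occupancy per cell from more cells with the site occupied.

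At Klf4, NANOG signal was spread over 3 windows in a downstream group close to OCT4 sites and 2 windows away from OCT4. The active enhancer flag marks windows near a P300 site that overlap H3K27ac, and the OCT4 flag marks an OCT4 site within 1 kb. Both come from published data of other ESC lines. The 3 downstream windows carry both flags, and the other 2 carry none. No other protein-coding gene overlaps this 100 kb neighbourhood. The summed signal of the locus was 43.9 and 72.7 RPKM in uninduced cells and 85.6 and 113 RPKM after IAA. The strongest window supplied 45.3% to 48.8% of it in each of the 4 libraries.

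**Figure D1:**
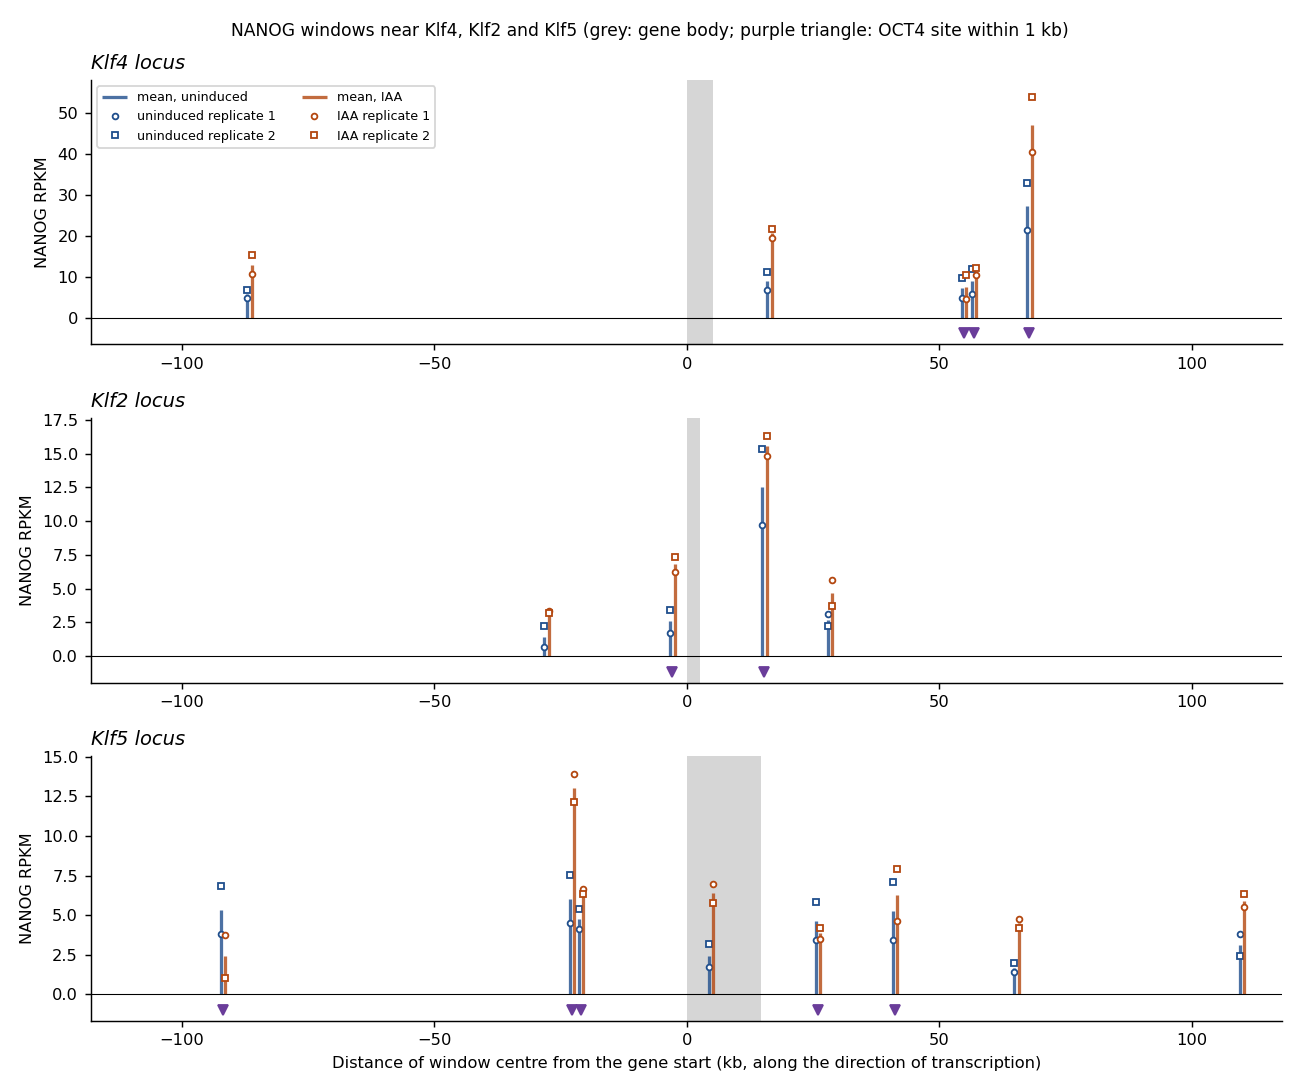
NANOG signal (RPKM, vertical axis) at each window against its distance from the gene start in kb, with 1 panel per gene. Bars are the means of 2 libraries, symbols the single libraries, the grey band the gene body and purple triangles windows with an OCT4 site within 1 kb. The tallest bars are those of the Klf4 +67.9 kb window, at 27.2 and 47.0 RPKM, and at Klf5 -91.8 kb the IAA bar is the lower one.

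The strongest window of the 3 loci was Klf4 +67.9 kb (chromosome 4, 55464367 to 55464717), in an intron of the long non-coding gene Gm12510 and ranked 11 of 16608 bound peaks by mean RPKM. It held 21.4 and 32.9 RPKM (62 and 135 reads) in uninduced cells and 40.3 and 53.8 RPKM (278 and 102 reads) after IAA. Each IAA value exceeded each uninduced value, but its change of 0.81 ± 0.50 (SE; limma, adjusted p = 0.235) did not pass the test and was 0.11 after centring. Among all bound peaks 53.1% changed less. Bound peaks with both the OCT4 and the active enhancer flag, which this window carries, had a lower median change of 0.49. Their quartiles were 0.07 and 0.92, and their median after centring was -0.21.

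The next windows towards the gene are intergenic and their centres lie 1930 bp apart. Klf4 +56.9 kb (chromosome 4, 55475420 to 55475770) held 5.88 and 11.96 RPKM (17 and 49 reads) before and 10.4 and 12.1 RPKM (72 and 23 reads) after IAA. Klf4 +54.9 kb (chromosome 4, 55477350 to 55477700) held 4.84 and 9.76 RPKM (14 and 40 reads) before and 4.64 and 10.5 RPKM (32 and 20 reads) after. In both windows the groups overlapped. The changes were 0.42 ± 0.42 and 0.03 ± 0.43 (SE), which turned to -0.28 and -0.67 after centring. IAA replicate 1, the deepest library, was the lowest of the 4 at +54.9 kb, and without uninduced replicate 1 the change there was -0.47.

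The windows away from OCT4 rose. Klf4 +16.4 kb (chromosome 4, 55515923 to 55516273), the window nearest to the gene, is intergenic and lies 11045 bp from the end of Klf4. It held 6.92 and 11.2 RPKM (20 and 46 reads) in uninduced cells and 19.6 and 21.6 RPKM (135 and 41 reads) after IAA. With means of 9.07 ± 3.05 and 20.6 ± 1.43 RPKM (SD, n = 2), a ratio of 2.27, it changed by 1.21 ± 0.43 (SE; limma, adjusted p = 0.0387). Klf4 -86.6 kb (chromosome 4, 55618905 to 55619255), in an intron of the long non-coding gene Gm12506, held 4.84 and 6.83 RPKM (14 and 28 reads) before and 10.6 and 15.3 RPKM (73 and 29 reads) after. It changed by 1.13 ± 0.42 (SE; limma, adjusted p = 0.0493). In both windows the groups did not overlap, also after centring, where the changes were 0.52 and 0.43. Neither centred change passed the test (limma, adjusted p = 0.257 and 0.430). Both IAA libraries also lay above both uninduced libraries in 66.4% of bound peaks without an OCT4 site, and in 29.0% after centring.

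Within each library the ratio between Klf4 windows is free of library scaling. The +67.9 kb window held 3.65 and 2.76 times the signal of the +56.9 kb window in uninduced cells and 3.86 and 4.44 times after IAA. The +16.4 kb window held 1.18 and 0.939 times the signal of the +56.9 kb window in uninduced cells and 1.88 and 1.78 times after IAA. Both ratios to the +56.9 kb window were higher in both IAA libraries than in either uninduced library, the first by little (3.86 against 3.65). The +56.9 kb window held only 17 reads in uninduced replicate 1. The ratios were chosen after the values were seen, carry no interval and were not tested.

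At Klf2 the signal was smaller and lay closer to the gene. Its 4 windows run from 27.7 kb upstream to 28.4 kb downstream of the gene start and carry no chromatin class flag, while 2 of them are close to an OCT4 site. The summed signal was 15.2 and 23.2 RPKM in uninduced cells and 30.0 and 30.6 RPKM after IAA. The neighbourhood is gene-dense, with Ap1m1, Eps15l1, Fam32a and Gm10282 also within 100 kb, so assignment to Klf2 is by position only.

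The strongest Klf2 window, +15.4 kb (chromosome 8, 72334260 to 72334610), is intergenic and close to an OCT4 site. It held 9.68 and 15.4 RPKM (28 and 63 reads) in uninduced cells and 14.8 and 16.3 RPKM (102 and 31 reads) after IAA. The groups overlapped, and the change of 0.35 ± 0.43 (SE) was -0.35 after centring. After centring both IAA values lay below both uninduced values.

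The window nearest to the Klf2 start, -2.8 kb (chromosome 8, 72316051 to 72316401), rose, although it is also close to an OCT4 site. This intergenic window lies 2807 bp upstream. It held 1.73 and 3.42 RPKM (5 and 14 reads) in uninduced cells and 6.24 and 7.38 RPKM (43 and 14 reads) after IAA, means of 2.57 ± 1.19 and 6.81 ± 0.805 RPKM (SD, n = 2). Its change of 1.44 ± 0.47 (SE; limma, adjusted p = 0.0257) was the highest of the 17 on the log2(RPKM + 0.1) scale, although by the ratio of means Klf5 +65.3 kb was higher (2.70 against 2.65). After centring the change was 0.74 and did not pass the test (limma, adjusted p = 0.326), while the groups still did not overlap. The 5 reads of uninduced replicate 1 carry a 95% exact Poisson interval of 0.562 to 4.04 RPKM, which covers counting error only.

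The flanking Klf2 windows lack an OCT4 site. Klf2 -27.7 kb (chromosome 8, 72291183 to 72291533), intergenic and nearest to the start of the coding gene Gm10282 (13902 bp), held 0.692 and 2.20 RPKM (2 and 9 reads) before and 3.34 and 3.16 RPKM (23 and 6 reads) after IAA. Klf2 +28.4 kb (chromosome 8, 72347288 to 72347638), in an intron of Eps15l1, held 3.11 and 2.20 RPKM (9 and 9 reads) before and 5.66 and 3.69 RPKM (39 and 7 reads) after. Both IAA values exceeded both uninduced values in each, yet neither change, 1.31 ± 0.61 and 0.78 ± 0.49 (SE), passed the test (limma, adjusted p = 0.111 and 0.243). After centring the groups overlapped in both.

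Klf5 had the most windows and the widest range of changes. Of its 8 windows 5 are close to an OCT4 site, and 2 of these, at +26.0 and +41.3 kb, carry the active enhancer flag. The summed signal was 26.3 and 40.3 RPKM in uninduced cells and 49.8 and 48.0 RPKM after IAA. No single window dominated, as the strongest supplied 17.1% to 28.0% of the locus signal per library.

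Upstream of Klf5, intergenic neighbours with centres at -22.7 and -20.9 kb are both close to an OCT4 site but changed by different amounts. Klf5 -22.7 kb (chromosome 14, 99275838 to 99276188) held 4.50 and 7.56 RPKM (13 and 31 reads) in uninduced cells and 13.9 and 12.1 RPKM (96 and 23 reads) after IAA. It was the strongest window of the locus and rose from 6.03 ± 2.17 to 13.0 ± 1.28 RPKM (SD, n = 2), a change of 1.14 ± 0.42 (SE; limma, adjusted p = 0.0478). Klf5 -20.9 kb (chromosome 14, 99277622 to 99277972) held 4.15 and 5.37 RPKM (12 and 22 reads) before and 6.67 and 6.32 RPKM (46 and 12 reads) after. Its change of 0.45 ± 0.44 (SE; limma, adjusted p = 0.456) did not pass. After centring the first was 0.44, with both IAA libraries still the higher, and the second was -0.25, with both IAA libraries the lower. Neither passed the test once centred (limma, adjusted p = 0.414 and 0.736). The difference between the neighbours was not tested.

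Inside the gene, Klf5 +4.8 kb (chromosome 14, 99303292 to 99303642) rose. It has no OCT4 site, overlaps the third exon of Klf5 and extends into the 3′ UTR of a shorter annotated transcript, so its sequence is not shown. It held 1.73 and 3.17 RPKM (5 and 13 reads) in uninduced cells and 6.96 and 5.80 RPKM (48 and 11 reads) after IAA. The change was 1.40 ± 0.48 (SE; limma, adjusted p = 0.0322). After centring it was 0.70, with no overlap of the groups, and did not pass the test (limma, adjusted p = 0.372).

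The downstream Klf5 windows are intergenic and fell into 2 kinds. The enhancer-flagged windows overlapped between groups before centring. Klf5 +26.0 kb (chromosome 14, 99324549 to 99324899) held 3.46 and 5.86 RPKM (10 and 24 reads) before and 3.48 and 4.22 RPKM (24 and 8 reads) after IAA, a change of -0.23 ± 0.47 (SE). After centring this was -0.93, with both IAA values below both uninduced values (limma, unadjusted p = 0.0173, adjusted p = 0.199). Klf5 +41.3 kb (chromosome 14, 99339858 to 99340208) held 3.46 and 7.08 RPKM (10 and 29 reads) before and 4.64 and 7.90 RPKM (32 and 15 reads) after, a change of 0.29 ± 0.44 (SE), or -0.41 after centring, where the groups still overlapped.

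The windows farther downstream have no OCT4 site and no flag. Klf5 +65.3 kb (chromosome 14, 99363838 to 99364188) held 1.38 and 1.95 RPKM (4 and 8 reads) before and 4.79 and 4.22 RPKM (33 and 8 reads) after IAA. Klf5 +110.0 kb (chromosome 14, 99408542 to 99408892), 95310 bp from the gene end, held 3.80 and 2.44 RPKM (11 and 10 reads) before and 5.51 and 6.32 RPKM (38 and 12 reads) after. The IAA libraries were the higher in both, but the changes of 1.40 ± 0.54 and 0.93 ± 0.47 (SE) did not pass the test (limma, adjusted p = 0.0570 and 0.139). After centring the change at +65.3 kb was 0.70, with both IAA libraries still the higher. At +110.0 kb it was 0.23, and the groups overlapped.

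The lowest change of all belonged to Klf5 -91.8 kb (chromosome 14, 99206730 to 99207080), in an intron of Pibf1 and 30334 bp from a start of that gene. It is close to an OCT4 site and held 3.80 and 6.83 RPKM (11 and 28 reads) in uninduced cells against 3.77 and 1.05 RPKM (26 and 2 reads) after IAA. Both IAA values lay below both uninduced values, although IAA replicate 1 and uninduced replicate 1 were nearly equal. The change was -1.30 ± 0.51 (SE; limma, adjusted p = 0.0593), lower than at all but 0.476% of bound peaks, and -2.00 after centring (limma, adjusted p = 0.0708). It leaned on the 2 reads of IAA replicate 2 (95% exact Poisson interval 0.128 to 3.81 RPKM). Without that library the change was -0.43, and with any other single library left out it ran from -2.17 to -0.89. By voom on recovered reads it was -0.89 (limma after voom, adjusted p = 0.153).

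**Figure D2:**
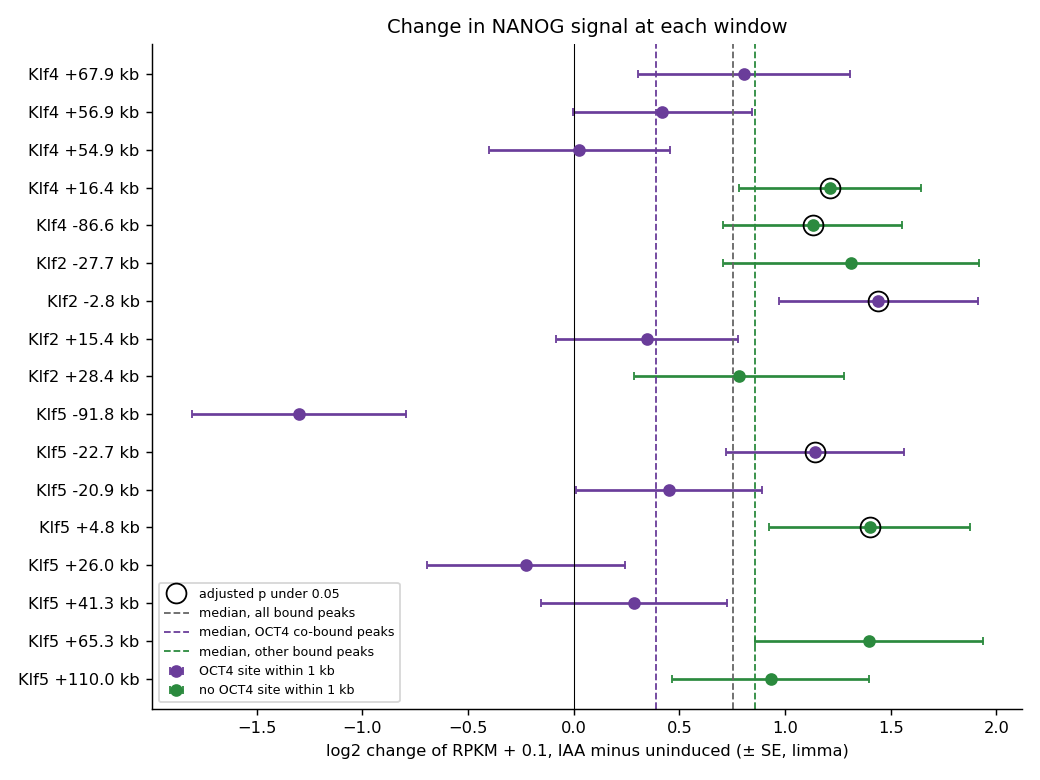
Change in NANOG signal (log2 of RPKM + 0.1, IAA minus uninduced, horizontal axis) for each of the 17 windows, with bars of 1 SE from limma. Purple points are close to an OCT4 site, green points are not, black rings mark an adjusted p under 0.05, and dashed lines are medians of bound peaks. All 7 green points lie between 0.78 and 1.40, while the purple points run from -1.30 to 1.44.

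Over all 17 windows 5 rose (limma, adjusted p of 0.0257 to 0.0493 over all bound peaks) and 0 fell (by voom on recovered reads also 0). By the same adjusted p the share of all bound peaks called higher was 15.0%, and called lower 0.337%. At an unadjusted p under 0.05, 8 of the windows were higher and 1 was lower. Counts at an unadjusted p, here and below, are given without the matching share of bound peaks and cannot be set against it. The median change of the members was 0.81 and that of all bound peaks 0.76. An OCT4 site was close to 10 of the 17 members and to 3930 of the 16608 bound peaks. These medians therefore describe unlike mixtures, so neither a likeness nor a difference is read from them, and the classes are given apart below. The calls at Klf4 -86.6 kb and Klf5 -22.7 kb were the closest to the threshold and were lost with a pseudocount of 0.01, with all windows tested or with bound peaks defined at 2 RPKM, while the other 3 passed in those fits. At 2 RPKM Klf5 +65.3 kb passed as well (limma, adjusted p = 0.0466). With library medians centred 0 windows were called by limma, with 1 higher and 2 lower at an unadjusted p under 0.05. The calls over all bound peaks then went from 2493 higher and 56 lower to 47 higher and 198 lower.

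The count depended on which library was left out, at the members and over all bound peaks alike. Without uninduced replicate 2, 9 of the 17 windows were called higher, against 40.7% of bound peaks. Without uninduced replicate 1, only Klf5 +110.0 kb was called higher (10.5% of bound peaks) and only Klf5 -91.8 kb lower (0.843%). Without IAA replicate 1 or IAA replicate 2 none of the 17 was called by limma (1 higher and 1 lower, and 1 higher and 0 lower, at an unadjusted p under 0.05), and neither was any of the 16608 bound peaks. In these fits 1 library stood alone in its group and was assumed to vary like the other group, so their calls say nothing about the stability of a single window. The size of a change does not rest on that assumption.

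Grouped by OCT4, the windows showed a split that has the direction already known for these data as a whole, so it is not independent evidence. Of the 7 windows without an OCT4 site, 3 were called higher, against 17.6% of bound peaks of that kind, and in 7 the IAA pair lay wholly above the uninduced pair (66.4% of such peaks). Of the 10 windows with an OCT4 site, 2 were called higher (6.69% of such peaks), 4 had both IAA libraries above (41.8%), 1 had both below, and 5 overlapped. Over all bound peaks the share with both IAA libraries above was 60.5% and with both below 4.23%. Median changes were 1.21 without and 0.38 with an OCT4 site, against 0.86 and 0.39 for the same kinds of bound peak.

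Centring subtracts the same amount from every change, so the order of the windows is kept by construction and only the signs can differ. After it all 7 windows without an OCT4 site had a positive change, against 60.1% of such bound peaks, and 7 of the 10 with one had a negative change, against 68.3%. Both IAA libraries lay above in 4 of 7 and in 2 of 10, against 29.0% and 12.2% of the matching bound peaks and 25.0% of all. Both lay below in 4 of the 17, all close to an OCT4 site, against 21.2% of all bound peaks. The 5 windows with both an OCT4 site and the enhancer flag had changes from -0.23 to 0.81, none of which passed the test, against 8.87% of the 1037 bound peaks with both flags, whose median change was 0.49. The 5 windows with an OCT4 site outside the enhancer class ranged more widely, from -1.30 at Klf5 -91.8 kb through 0.35 at Klf2 +15.4 kb and 0.45 at Klf5 -20.9 kb to 1.14 at Klf5 -22.7 kb and 1.44 at Klf2 -2.8 kb, and the last 2 rose.

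Summed over each locus, NANOG signal was higher after IAA at all 3 genes. The log2 difference was 0.80 at Klf4, 0.69 at Klf2 and 0.59 at Klf5, against SDs between replicates of 0.42, 0.30 and 0.31. The IAA pair lay wholly above the uninduced pair at each locus, and p was 0.333 in each case by a two-sided exact permutation test, the smallest that 2 libraries against 2 allow. The same order held in 60.5% of all bound peaks, and the library medians over bound peaks were also higher after IAA. The order is therefore not particular to these loci. After quantile normalization the difference at Klf2 and Klf5 took the other sign.

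As a share of all reads in bound peaks, which removes a library-wide shift, the loci differed little between conditions. Klf4 took 0.0961% and 0.112% of these reads in uninduced cells and 0.0986% and 0.123% after IAA. Klf2 took 0.0333% and 0.0357% before and 0.0346% and 0.0331% after. Klf5 took 0.0575% and 0.0620% before and 0.0573% and 0.0519% after. The groups overlapped at Klf4 and Klf2 (log2 difference 0.08 and -0.03, two-sided exact permutation p = 0.667 each). At Klf5 both IAA libraries lay just below (log2 difference -0.13, two-sided exact permutation p = 0.333), and its 95% Wilson intervals overlapped in all 4 libraries, from 0.0460% to 0.0720% in uninduced replicate 1 and from 0.0423% to 0.0637% in IAA replicate 2. The order at Klf5 depended on the setting. Its log2 difference was -0.03 with windows within 50 kb only. With all windows in the total it was -0.12 (two-sided exact permutation p = 0.667).

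**Figure D3:**
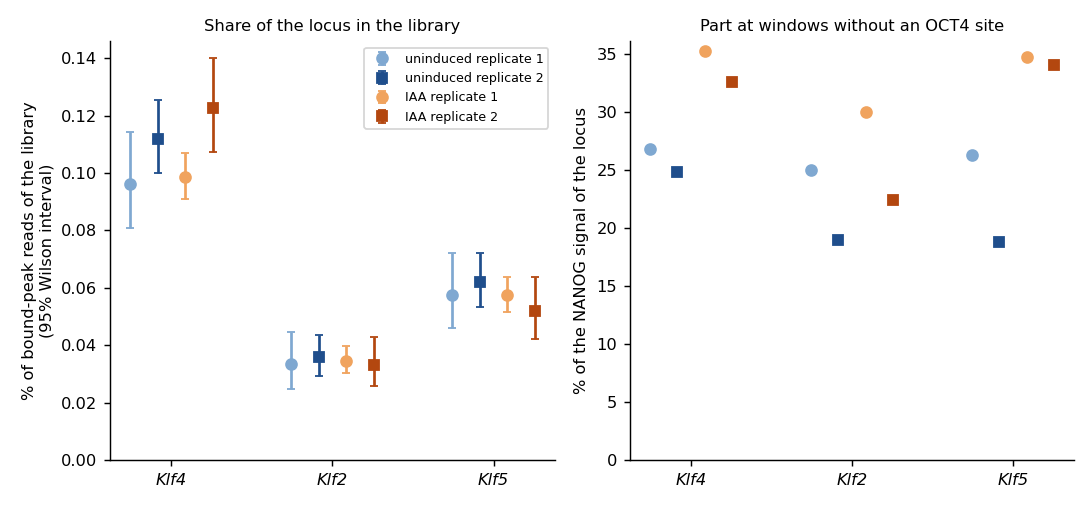
Left, reads at each locus as a percentage of all reads in bound peaks of the library, with 95% Wilson intervals. Right, the percentage of the NANOG signal of the locus that lay at windows without an OCT4 site, with no error bar. Each symbol is 1 library, and on the right both IAA symbols lie above both uninduced symbols at Klf4 and Klf5 and overlap them at Klf2.

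At Klf4 and Klf5 the distribution inside the locus differed more between conditions than the share of the locus did. Windows without an OCT4 site held 26.8% and 24.8% of the Klf4 signal in uninduced cells and 35.3% and 32.6% after IAA. At Klf5 they held 26.3% and 18.8% before and 34.7% and 34.1% after. At Klf2 they held 25.0% and 18.9% before and 30.0% and 22.4% after, so that the groups overlapped. These percentages do not depend on the scaling of a library. They were not tested. Over all bound peaks the median change was also higher without an OCT4 site (0.86) than with one (0.39). The direction is therefore that of the series and not particular to these loci.

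**Figure D4:**
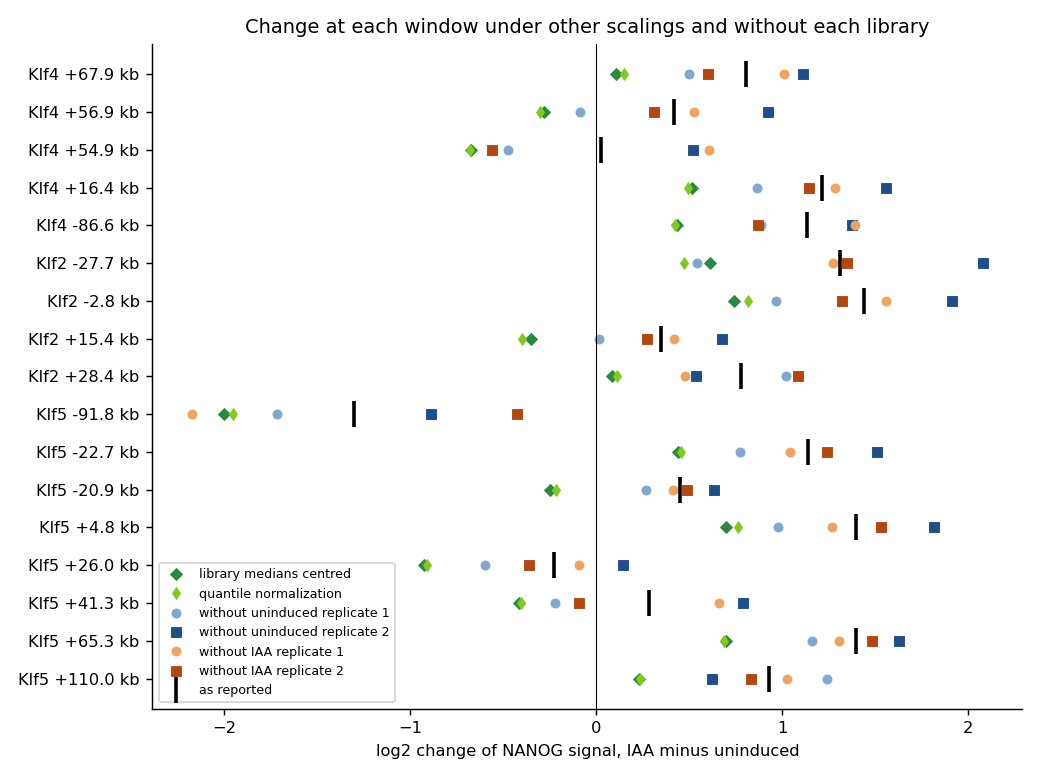
Change in NANOG signal (log2, IAA minus uninduced, horizontal axis) at each window as reported (black bar), after centring or quantile normalization (green), and without each library (blue and orange). Both scalings move all windows to the left, and at Klf4 +56.9 and +54.9 kb, Klf2 +15.4 kb and Klf5 -20.9 and +41.3 kb they take the change below 0.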

How the data were processed

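NANOG ChIP-seq was measured in 4 libraries, 2 uninduced and 2 IAA, grouped by their titles. Per the labels and the study's methods, reads were aligned to mm10 with Bowtie2 2.3.4.3, peaks were called by MACS2 after pooling both conditions, and the authors computed the deposited RPKM with DiffBind over summit-centred windows. A further table holds the authors' RPKM per condition, equal to the average of the replicate files within 4.99e-06, and 4 flags, of which OCT4 comes from MACS2 peaks of published reads and the chromatin classes from published Ensembl peak sets.

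Each window spans 351 bp. Whole multiples of 1 read (within 0.01 reads) made up 100% of values, so reads were recovered. No value is 0, so 1 read may also stand for none. Intervals cover counting error only.

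All 16608 bound peaks were fitted with limma 3.58.1 (R 4.3.3) on log2(RPKM + 0.1), which shrinks the change of weak windows, with a variance trend and Benjamini-Hochberg adjustment over all bound peaks (threshold 0.05). Sums and shares per locus were compared by exact permutation of the libraries. Alternatives were pseudocounts of 0.01 and 0.5, all windows, 2 RPKM, quantile normalization, centred medians, a replicate block, no trend, voom on recovered reads, 50 kb and leaving out each library. Scripts were tested on simulated data. Genes were annotated with GENCODE release 21 for mouse, and sequence came from the RefSeq GRCm38 genome. All windows near the genes were described, in full for the 3 strongest per gene, the one nearest the start, those past the threshold and those lower in both IAA libraries.

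The members, lists and tests were chosen with earlier results of these data known. The ATGCAA pattern, the centred overlap counts, the percentages inside loci and the ratios between Klf4 windows were added after the values were seen. Python was 3.11.15.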

Additional observations from a re-analysis of the deposited data

How the results depend on the processing

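Against 5 windows called higher (15.0% of bound peaks), 3 were called with a pseudocount of 0.01 (13.5%) or with all windows tested (9.89% of them). By limma 0 were called after quantile normalization, with centred library medians or without a variance trend (at an unadjusted p under 0.05, 2 higher and 3 lower, 1 and 2, and 7 and 1), where 0, 47 and 157 of all bound peaks were called higher. The count was between 0 and 9 with single libraries left out, where windows called lower numbered between 0 and 1. With the replicate block 6 windows were called (16.0% of bound peaks), the addition being Klf4 +67.9 kb (limma, adjusted p = 0.00718). Deviations of same-numbered libraries correlated at 0.0055, which gives no sign that the numbers pair the samples but cannot exclude it. The sources used here do not state a pairing, so the block was kept as an alternative only. Of 13 alternatives 4 (all windows, 2 RPKM, replicate block, no trend) leave each change as it is. Under the 9 that can move it, 136 of 153 window changes kept their sign.

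After quantile normalization and centring, in this order, the changes were -0.302 and -0.279 at Klf4 +56.9 kb, -0.678 and -0.673 at Klf4 +54.9 kb, -0.4 and -0.351 at Klf2 +15.4 kb, -0.212 and -0.246 at Klf5 -20.9 kb, and -0.405 and -0.412 at Klf5 +41.3 kb; voom gave -0.0764 at Klf4 +54.9 kb. With single libraries left out they ran from -0.0869 to 0.925 at Klf4 +56.9 kb, from -0.558 to 0.61 at Klf4 +54.9 kb, from -0.599 to 0.144 at Klf5 +26.0 kb and from -0.22 to 0.79 at Klf5 +41.3 kb. The difference in summed signal was -0.0432 at Klf2 and -0.101 at Klf5 after quantile normalization. The difference in share ran from -0.0733 to 0.241 at Klf4 and from -0.0779 to 0.0228 at Klf2 with single libraries left out. The cause of these reversals was not tested. Depth limits the weak windows most, since 1 read is worth 0.527 RPKM in IAA replicate 2.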

Other observations

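The 3 loci hold more NANOG windows than most genes. Klf5 has 8 bound windows within 100 kb, a number that 3.14% of 21938 protein-coding genes reach, Klf4 has 5 (reached by 14.5%) and Klf2 has 4 (22.9%), against a median of 2. Long genes have more sequence within reach, and the counts are not corrected for this.

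No window lies close to the 100 kb limit on the outer side. The nearest ones outside it are 218.2 and 473.5 kb from Klf4, 166.3 and 234.2 kb from Klf2, and 209.9 and 136.1 kb from Klf5. The window 166.3 kb upstream of Klf2 went from 6.73 to 15.3 RPKM in the authors' condition means, and the window 136.1 kb beyond the end of Klf5 from 2.19 to 4.24 RPKM, and neither has an OCT4 site.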
